A study of Mus musculus with 11 samples.

Results

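A set of 10 genes that move, store or bind zinc was followed in sorted mouse β-cells, out of the 34728 genes in the expression table. They were chosen by name: 7 exporters of the Slc30a (ZnT) family, *Slc30a8*, *Slc30a1*, *Slc30a4*, *Slc30a5*, *Slc30a6*, *Slc30a7* and *Slc30a9*, the importer *Slc39a14* (ZIP14), and the metallothioneins *Mt1* and *Mt2*. All 10 were found in the table of 11 RNA-seq libraries. Each library came from GFP-positive cells sorted out of dispersed islets of 8-week-old mice on a C57BL/6 x 129SV background. WT mice (3 libraries) were wild type for *Raptor*, diabetic βRapKOGFP mice (4 libraries) lacked *Raptor* in the cells where Cre had acted, and euglycemic βRapKOGFP mice (4 libraries) carried the same deletion and had received insulin treatment from an implanted pellet for 4 weeks. All groups, WT included, carried RIP-Cre, a Cre recombinase under control of the insulin promoter of the rat, and a *Rosa26* GFP reporter, so GFP marks cells in which that promoter was at some time active, and not cells that still make insulin. The study describes its repetitions as biologically independent, but the labels do not name the mouse or mice behind each library, so the p-values measure only the spread between these libraries. In the table, the euglycemic columns are headed KI, which the labels do not spell out, and every euglycemic value rests on matching them to the samples titled as insulin-treated KO.

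β-cells hold one of the highest zinc contents of any cell type, because insulin is stored in secretory granules as crystals of hexamers held together by zinc. Exporters of the ZnT family move zinc out of the cytosol, either across the plasma membrane or into organelles, and importers of the ZIP family move it the other way. Metallothioneins are small cysteine-rich proteins that bind zinc and copper in the cytosol, and their genes are classical targets of the metal-responsive factor MTF1, which binds metal response elements, and of glucocorticoids and oxidative stress.

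The upstream sequences of 4 genes are shown because the results turn on how they varied: *Mt1* and *Mt2*, which varied together from library to library, *Slc30a1*, which is the other classical MTF1 target among the 10 genes, and the neighbouring *Mt3*, which was higher in both mutant groups. Each run holds the 250 bases before the transcription start given by RefSeq (GRCm38.p6), written 5′ to 3′ on the gene's strand. Capitals mark matches on either strand to the core of the metal response element, searched as TGCACNC and TGCGCNC, which do not overlap each other at these matches.
Mt1, chr8:94178839-94179088, + strand: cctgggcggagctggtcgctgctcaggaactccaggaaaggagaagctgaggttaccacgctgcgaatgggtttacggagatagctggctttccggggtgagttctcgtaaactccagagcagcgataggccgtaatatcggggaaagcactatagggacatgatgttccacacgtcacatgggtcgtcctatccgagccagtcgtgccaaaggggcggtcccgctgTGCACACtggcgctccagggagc
Mt2, chr8:94172368-94172617, + strand: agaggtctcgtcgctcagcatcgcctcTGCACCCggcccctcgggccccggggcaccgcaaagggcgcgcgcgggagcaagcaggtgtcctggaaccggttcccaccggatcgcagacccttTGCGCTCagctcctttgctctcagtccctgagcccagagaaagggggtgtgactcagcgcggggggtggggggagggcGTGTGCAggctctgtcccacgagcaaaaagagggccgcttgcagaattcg
Slc30a1, chr1:191906531-191906780, + strand: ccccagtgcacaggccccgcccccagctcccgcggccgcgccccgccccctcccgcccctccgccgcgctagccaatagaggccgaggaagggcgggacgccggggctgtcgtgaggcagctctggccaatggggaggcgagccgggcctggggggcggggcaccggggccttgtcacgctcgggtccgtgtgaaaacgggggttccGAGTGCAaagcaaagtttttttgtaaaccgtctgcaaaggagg
Mt3, chr8:94152357-94152606, + strand: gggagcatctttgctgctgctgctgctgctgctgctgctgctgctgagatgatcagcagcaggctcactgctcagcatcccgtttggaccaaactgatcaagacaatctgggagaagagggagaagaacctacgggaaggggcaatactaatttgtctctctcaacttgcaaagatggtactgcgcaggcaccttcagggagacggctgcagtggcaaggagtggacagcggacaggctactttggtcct

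*Mt2* had 3 matches in these 250 bases, *Mt1* and *Slc30a1* had 1 each, and *Mt3* had 0. Of the 10 genes, 8 had an entry among the RefSeq promoter sequences used here, and in these *Slc30a4* had 2 matches, *Slc30a5* had 1, and *Slc30a6*, *Slc30a7* and *Slc30a9* had 0. Over all 32851 promoters of the same length, 21.4% held at least 1 match, 5.17% at least 2 and 1.26% at least 3. *Slc30a8* and *Slc39a14* are named only. The core is short and a match is a run of letters, not a measured binding site. The counts also depend on the start used. GENCODE starts *Mt1* at 94179082, inside the window shown, and *Mt2* at 94172664, beyond the end of its window. Bases after the RefSeq start were not searched, so matches there are not counted.

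**Figure D1:**
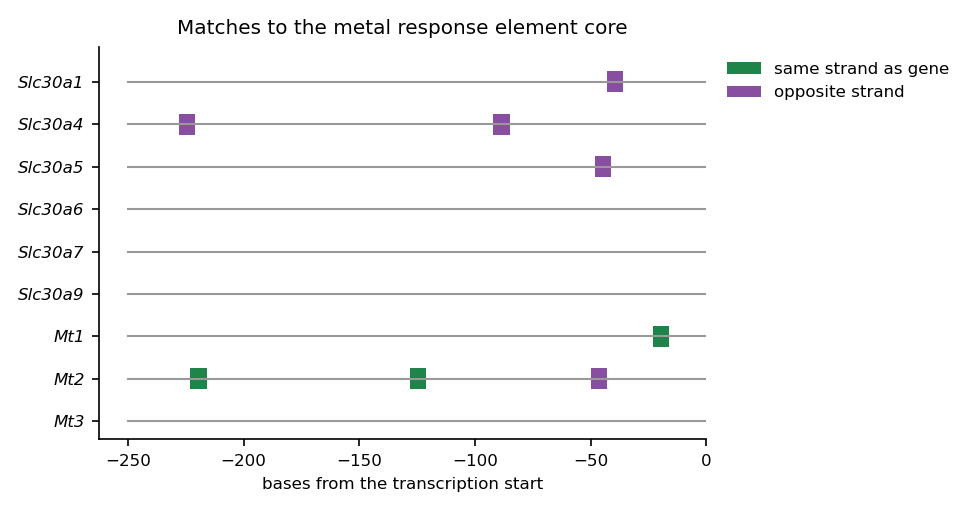
Matches to the metal response element core in the 250 bases before the RefSeq transcription start of 8 zinc genes and *Mt3*; the horizontal axis is the distance from the start in bases, each block is 1 match of 7 bases, and its colour gives the strand. *Mt2* holds 3 matches, spread over most of the window, and the match of *Mt1* lies 17 to 23 bases before its start.

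Levels are given as FPKM, the number of sequenced fragments per kilobase of transcript, scaled by how many were mapped, so levels of different genes can be compared per length. The levels of the 10 genes covered 3 orders of magnitude. In WT, *Mt1* had the highest mean at 1336 FPKM ± 1605 (SD, n = 3), *Slc30a8* had 681.9 ± 35.8 and *Mt2* had 306.3 ± 390.7, and the libraries of *Mt1* overlapped with those of *Slc30a8* and those of *Slc30a8* with those of *Mt2*. *Slc30a5* followed at 31.0 ± 2.05 and *Slc30a6* at 13.2 (11.1 to 15.1), each apart from its neighbours in this order. *Slc30a9* at 6.23 ± 0.0872, *Slc30a7* at 5.53 ± 2.05, *Slc30a1* at 4.78 ± 1.67 and *Slc30a4* at 2.50 ± 1.06 formed a run in which neighbours overlapped, and *Slc39a14* was lowest at 0.991 ± 0.209. In the diabetic group *Mt1*, *Slc30a8*, *Mt2*, *Slc30a5* and *Slc30a6* kept this order with no overlap between neighbours. In the euglycemic group the order of these 5 was the same, with *Slc30a8* and *Mt2* overlapping.

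The deposited values carry no fragment totals. From the step size of low values in single-exon genes, depth was inferred as 9496727 to 16645621 fragments per library, at which 1 fragment on a transcript of 1 kilobase is worth 0.0601 to 0.105 FPKM. *Slc39a14* rested on the fewest fragments, about 44 to 95 per library if its longest transcript is taken, and so had the largest relative counting error of the 10. *Rptor*, which encodes the deleted protein, was lower in every mutant library (0.423 to 0.937 FPKM) than in every WT library (0.948 to 1.79 FPKM), although the margin was narrow. Exact permutation tests, two-sided, gave p = 0.0571 for the diabetic group against WT, which does not pass, 0.0286 for the euglycemic group and 0.00606 for both together. Reads of exons outside the deleted part count towards its value. The list of 8 β-cell markers was present in all libraries, with a summed level of 156831 to 190733 FPKM in WT, 137993 to 206354 in the diabetic and 116948 to 201974 in the euglycemic group. Nearly all of this sum came from the insulin and amylin genes, so it does not show the level of the other markers listed.

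**Figure D2:**
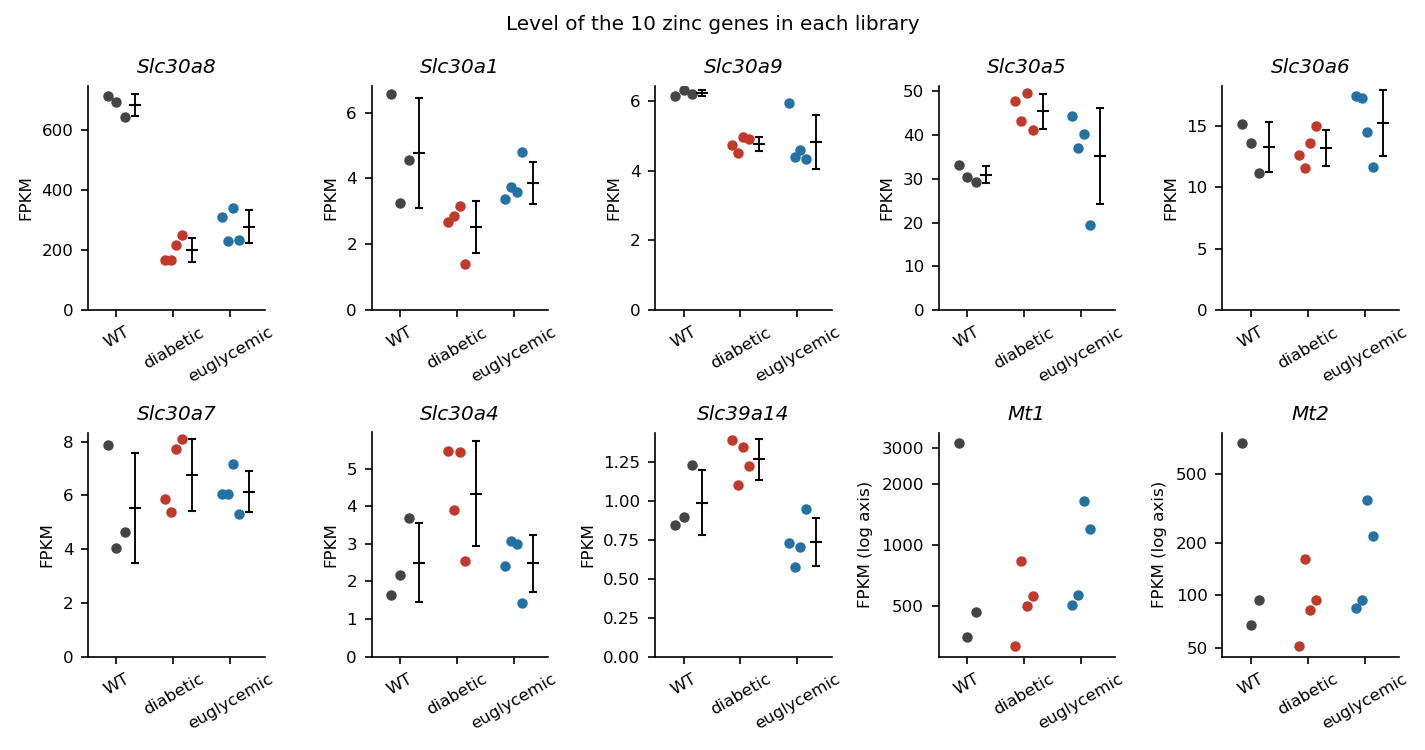
FPKM of each of the 10 zinc genes in every library (points) with the mean and SD beside each group (8 transporters; none drawn for *Mt1* and *Mt2*, whose axes are logarithmic); WT n = 3, diabetic n = 4, euglycemic n = 4. *Slc30a8* separates WT (642.3 to 712.1) from all mutant libraries (166.3 to 339.0), while 1 WT library stands far above the others for *Mt1* and *Mt2*.

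The comparisons ask what loss of *Raptor* did to these genes in diabetic mice, whether it did the same where insulin had kept glucose normal, and whether the mutant groups differed from each other. In each, log2(FPKM + 1) was fitted with limma over 11251 genes. A gene passed if its p, adjusted over all genes tested (Benjamini-Hochberg), did not exceed 0.05 and it differed by 1.5-fold or more. All 10 zinc genes passed the filter on low values, which asked for 3 or more libraries with an FPKM of 1 or higher. One of the 10, *Slc30a8*, passed in the diabetic group against WT, where it was lower, and 0.498% of all genes tested passed as lower and 0.969% in either direction. The same gene alone passed in the euglycemic group against WT, again lower, against 0.196% of all genes as lower and 0.551% in either direction. Between the diabetic and euglycemic groups 0 of the 10 passed by limma, where 0.00889% of all genes did, and 3 of the 10 had an unadjusted p under 0.05, against 20.6% of all genes. At unadjusted p, 4 of the 10 were under 0.05 in the diabetic group against WT and 1 in the euglycemic group against WT, beside 11.9% and 13.9% of all genes. The median log2 fold change of the 10 was -0.16, -0.05 and -0.09 in the 3 comparisons in that order, and that of all genes tested was 0.0063, -0.010 and 0.0088. Both mutant groups were set against the same 3 WT libraries.

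**Figure D3:**
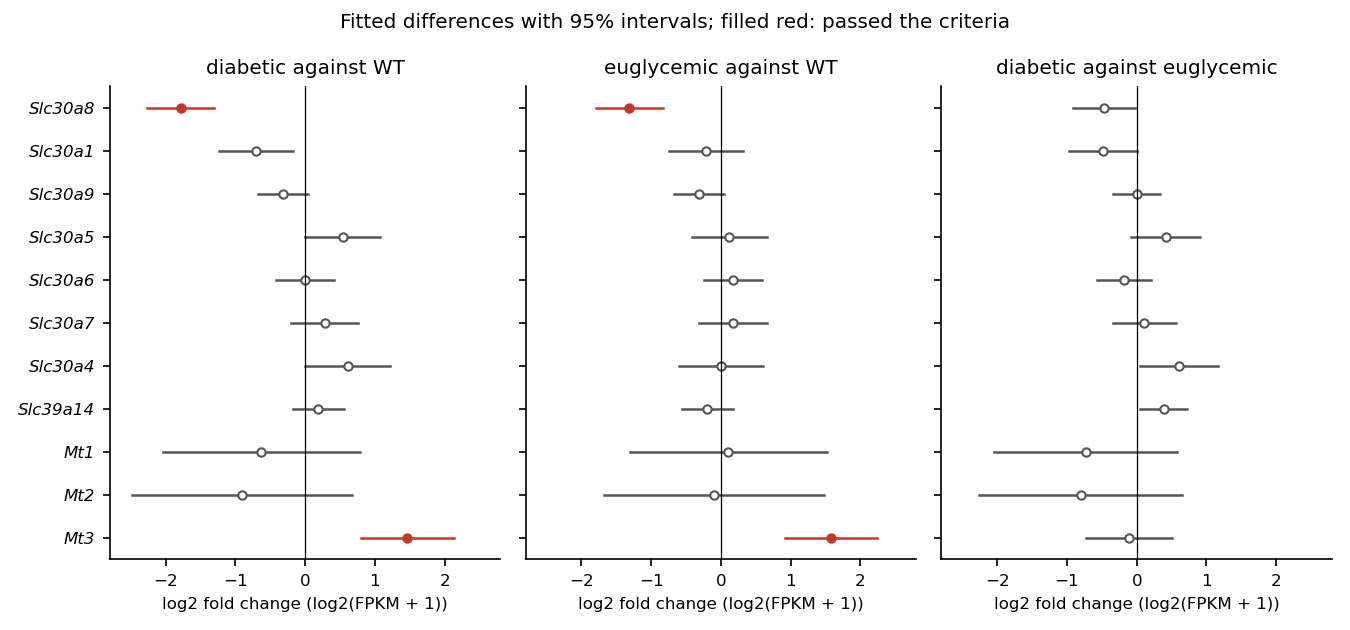
Fitted log2 fold change on the log2(FPKM + 1) scale (points) with its 95% confidence interval (lines) for the 10 zinc genes and *Mt3* in the 3 comparisons; filled red points passed the criteria. *Slc30a8* lies at -1.78 and -1.31 against WT, *Mt3* at 1.47 and 1.58, and the intervals of *Mt1* and *Mt2* span 0 in each comparison.

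*Slc30a8* (ENSMUSG00000022315, chromosome 15, 52295553 to 52335798 of GRCm38, + strand) encodes ZnT8, which carries zinc into insulin granules. Its FPKM was 712.1, 691.2 and 642.3 in WT, 166.3, 166.9, 216.4 and 251.2 in the diabetic group, and 308.5, 230.6, 339.0 and 232.0 in the euglycemic group. The lowest WT library lay well above the highest mutant one, and the mutant groups overlapped each other. The diabetic mean was 29.4% of the WT mean and the euglycemic mean 40.7%. On the log2(FPKM + 1) scale it fell by 1.78 (SE 0.22, adjusted p = 0.0027 by limma) in the diabetic group and by 1.31 (SE 0.22, adjusted p = 0.0195 by limma) in the euglycemic group. The call in the euglycemic group was lost in 8 of 22 alternative settings. Among these were the fits without WT replicate 2, WT replicate 3 or euglycemic replicate 2, with log2 differences of -1.30, -1.36 and -1.23 and adjusted p of 0.106, 0.101 and 0.0742 by limma. Between the mutant groups the difference was -0.47, with a 95% interval of -0.91 to -0.03 and an adjusted p of 0.218 by limma (0.0979 to 0.955 over the alternatives), so a lower level in the diabetic group did not pass the test.

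RNA of other pancreatic cell types differed between these libraries, and in sorted cells measured in bulk fewer β-cells and less RNA per β-cell cannot be told apart. The summed FPKM of 10 acinar markers was 3.54 to 39.0 in WT, 15.9 to 2297 in the diabetic and 14.9 to 4320 in the euglycemic group. In the mutant libraries with the least acinar RNA, diabetic replicate 4 and euglycemic replicates 2 and 3, *Slc30a8* was at 251.2, 230.6 and 339.0 FPKM, below every WT library. With only the 6 libraries of low acinar RNA, which leave 1 diabetic library that is assumed to vary like the others, the log2 fold change was -1.44 in the diabetic group and did not pass (adjusted p = 0.294 by limma). With the acinar score as a covariate in all libraries it was -1.56 (adjusted p = 0.0384) in the diabetic group and -1.15 (adjusted p = 0.0841) in the euglycemic group. The summed level of 5 α-cell markers was 1047 to 2438 FPKM in WT, 3935 to 14718 in the diabetic and 4759 to 23767 in the euglycemic group, and that of 3 δ- and PP-cell markers was 1933 to 3380, 8350 to 23393 and 9648 to 24022. Duct markers summed to 4.02 to 6.79 FPKM in WT, 17.5 to 32.9 in the diabetic and 32.9 to 43.5 in the euglycemic group. Endothelial markers summed to 1.98 to 4.73, 9.18 to 53.1 and 2.13 to 5.29 FPKM, and immune markers to 42.7 to 56.7, 75.4 to 199.4 and 58.8 to 128.2, in the same order of groups. *Cdh5* and *Kdr* (endothelial) were at 0 in all WT libraries, *Cd3e* (immune) in all libraries, and *Ptprc* (immune) in all WT and euglycemic libraries. Mesenchymal markers summed to 0 to 0.496 FPKM in WT, 0.563 to 18.1 in the diabetic and 0 to 0.151 in the euglycemic group, with *Pdgfra*, *Pdgfrb* and *Lum* at 0 in all WT libraries and *Pdgfrb* in all euglycemic libraries. No acinar, α- or δ- and PP-cell marker was at 0 in every library of a group. The part of these cell types in the level of *Slc30a8* was not tested. The 3 genes whose level over the 11 libraries was most like that of *Slc30a8*, by Pearson correlation of log2(FPKM + 1), were *Fkbp1b*, a binding partner of calcium release channels (r = 0.972), *Trpm5*, a calcium-activated cation channel (r = 0.971), and *Tmem80* (r = 0.968). These values are descriptive, since the libraries share the separation of the groups.

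The share of *Slc30a8* in the summed FPKM of all Slc30a genes does not depend on how libraries were scaled, since a factor common to a library cancels in the ratio. It was 91.0, 92.0 and 91.5% in WT, 67.7, 70.1, 71.9 and 77.5% in the diabetic group, and 79.5, 76.3, 82.3 and 83.2% in the euglycemic group. No mutant library reached the lowest WT library, and diabetic replicate 4 overlapped with the euglycemic group. Against WT (91.5 ± 0.521, SD, n = 3) the share differed by -19.7 percentage points in the diabetic group (71.8 ± 4.17, n = 4) and by -11.2 points in the euglycemic group (80.3 ± 3.08, n = 4). Each had p = 0.0286 by an exact permutation test, two-sided, the smallest that 4 libraries against 3 allow, and 0.0429 after adjustment over the 3 comparisons. The diabetic group differed from the euglycemic group by -8.52 points, which did not pass (exact permutation p = 0.0571, adjusted 0.0571), although it did without diabetic replicate 4 (-10.4 points). The share rests on the same *Slc30a8* values as the fit. The summed FPKM of the other Slc30a genes was 63.3 ± 6.29 (SD, n = 3) in WT, 77.1 ± 6.09 (n = 4) in the diabetic and 67.8 ± 14.3 (n = 4) in the euglycemic group. The largest part of it in every library was *Slc30a5*, whose share of the whole family was 4.16% in WT, 16.7% in the diabetic and 10.1% in the euglycemic group.

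**Figure D4:**
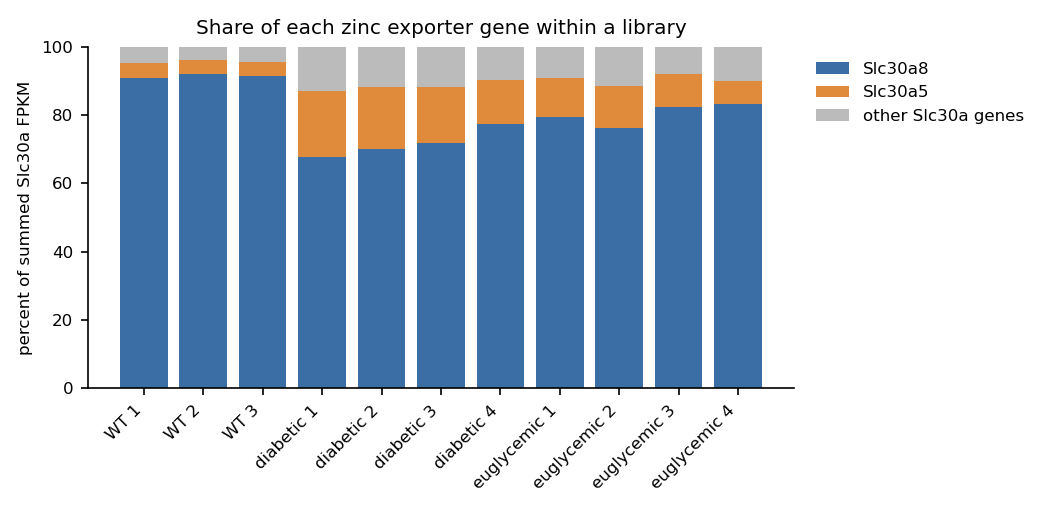
Percent of the summed FPKM of all Slc30a genes taken by *Slc30a8* (blue), *Slc30a5* (orange) and the other members (grey) in each library. *Slc30a8* holds 91.0 to 92.0% in WT, 67.7 to 77.5% in the diabetic and 76.3 to 83.2% in the euglycemic libraries.

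*Slc30a1* encodes ZnT1, the exporter of the plasma membrane. Its FPKM was 6.55, 3.24 and 4.55 in WT, 2.68, 2.85, 3.18 and 1.40 in the diabetic group and 3.38, 3.73, 3.57 and 4.80 in the euglycemic group. All diabetic libraries lay below all WT and all euglycemic ones, by a narrow margin (3.18 against 3.24 and 3.38). Of the 10 genes, 4 had groups that did not overlap in the diabetic group against WT, 1 higher (*Slc30a5*) and 3 lower (*Slc30a8*, *Slc30a1* and *Slc30a9*), beside 13.5% of all genes tested, 6.67% higher and 6.88% lower. The fitted change of *Slc30a1* was -0.70 (95% interval -1.23 to -0.17, adjusted p = 0.257 by limma) against WT and -0.49 (-0.98 to 0.0031, adjusted p = 0.245) against the euglycemic group, and neither passed. Of its exon bases 8.92% overlap the antisense gene *1700034H15Rik*, and whether reads were counted by strand is not given in the sources used here.

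The transporters of the early secretory pathway and Golgi, *Slc30a5* (ZnT5), *Slc30a6* (ZnT6) and *Slc30a7* (ZnT7), supply zinc to enzymes made there. *Slc30a5* had 33.2, 30.5 and 29.2 FPKM in WT, 47.9, 43.1, 49.7 and 41.1 in the diabetic group and 44.4, 37.1, 40.3 and 19.5 in the euglycemic group. All diabetic libraries lay above all WT ones, while the euglycemic group ranged from below WT to the diabetic level because of replicate 4. The fitted difference was 0.54 (95% interval 0.0031 to 1.07, adjusted p = 0.418 by limma) for diabetic against WT, which passed in 1 of 22 alternative settings, the one with library weights. For *Slc30a6*, the partner of *Slc30a5* in a heterodimer, libraries ranged from 11.1 to 15.1 FPKM in WT, 11.5 to 14.9 in the diabetic and 11.7 to 17.4 in the euglycemic group, with all groups overlapping. The 95% interval of its log2 fold change was -0.42 to 0.41 for diabetic against WT and -0.24 to 0.59 for euglycemic against WT. *Slc30a7* ranged from 4.06 to 7.86 FPKM in WT, 5.40 to 8.09 in the diabetic and 5.32 to 7.16 in the euglycemic group, also overlapping, with intervals of -0.21 to 0.77 and -0.32 to 0.65. Of its exon bases 16.0% overlap genes on the other strand, *Gm43106* and *Gm6649*.

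*Slc30a4* (ZnT4), an exporter of vesicles, and *Slc30a9* (ZnT9), which has been assigned to mitochondria, did not pass in any comparison. *Slc30a4* had 1.64, 2.18 and 3.68 FPKM in WT, 5.46, 3.91, 5.45 and 2.54 in the diabetic group and 2.42, 3.07, 3.01 and 1.42 in the euglycemic group. Diabetic replicate 4 fell among the others while the remaining 3 diabetic libraries lay above every WT and euglycemic library. Its fitted difference was 0.61 against WT (95% interval 0.0038 to 1.21, adjusted p = 0.417 by limma) and 0.61 against the euglycemic group (0.046 to 1.17, adjusted p = 0.215). The 3 diabetic libraries in which *Slc30a4* was high had many acinar markers, with a summed acinar level of 2297, 1174 and 1225 FPKM against 15.9 in replicate 4. In the euglycemic group the library with the most, replicate 4 at 4320, had the lowest *Slc30a4*. With the acinar score as a covariate the fitted difference of *Slc30a4* was 0.53 against WT (adjusted p = 0.69 by limma) and 0.59 against the euglycemic group (adjusted p = 0.254). With only the 6 libraries of low acinar RNA, of which replicate 4 is the 1 diabetic library, the fitted difference was 0.056 and -0.19. The part of acinar RNA in the level of *Slc30a4* was not tested.

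*Slc30a9* was the steadiest gene of the 10 in WT, at 6.15, 6.32 and 6.21 FPKM. It was at 4.75, 4.51, 4.96 and 4.91 in the diabetic group and at 5.96, 4.40, 4.59 and 4.33 in the euglycemic group. All mutant libraries had less than the lowest WT library, and euglycemic replicate 1 stood closest to WT. The fitted changes were small, -0.32 in each mutant group (95% intervals -0.68 to 0.035 and -0.68 to 0.037, adjusted p = 0.474 and 0.41 by limma), and did not pass. *Slc30a8* and *Slc30a9* were the 2 of 10 genes whose groups did not overlap in euglycemic against WT, both lower, beside 10.9% of all genes tested, 5.91% higher and 5.02% lower.

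*Slc39a14* encodes ZIP14, an importer of zinc and iron that is known to be induced by inflammatory cytokines in liver. Its FPKM was 0.845, 0.897 and 1.23 in WT, 1.40, 1.10, 1.35 and 1.23 in the diabetic group and 0.730, 0.575, 0.705 and 0.949 in the euglycemic group. All diabetic libraries lay above all euglycemic ones, and both groups overlapped with WT. The gene met the filter on low values through the 4 diabetic libraries and 1 WT library, so its difference between the mutant groups is given as a description only. Diabetic against euglycemic, 2 of the 10 genes had groups that did not overlap, *Slc39a14* higher and *Slc30a1* lower, beside 14.3% of all genes tested, 6.85% higher and 7.42% lower. The difference was 0.39 (95% interval 0.044 to 0.73, adjusted p = 0.202 by limma) and did not pass.

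*Mt1* and *Mt2* were the most variable of the 10 genes within a group. *Mt1* had 3187, 353.1 and 467.1 FPKM in WT, 317.6, 833.6, 502.7 and 560.1 in the diabetic group and 507.6, 568.7, 1649 and 1199 in the euglycemic group. *Mt2* had 757.2, 67.2 and 94.5 FPKM in WT, 51.3, 162.4, 82.8 and 94.4 in the diabetic group and 84.6, 93.7, 355.0 and 219.5 in the euglycemic group. WT replicate 1 had the highest level of both, and in the euglycemic group replicates 3 and 4 stood above replicates 1 and 2. The highest WT library exceeded the lowest 9.03 times for *Mt1* and 11.3 times for *Mt2*, and the corresponding ratios were 2.62 and 3.16 in the diabetic and 3.25 and 4.19 in the euglycemic group. No comparison passed: against WT the diabetic group differed by -0.63 for *Mt1* (95% interval -2.04 to 0.79) and by -0.91 for *Mt2* (-2.48 to 0.67), and the euglycemic group by 0.11 (-1.31 to 1.52) and -0.10 (-1.67 to 1.47). The intervals hold decreases of more than 2-fold in both groups and increases of more than 2-fold in the euglycemic group, so changes of that size could not be told from the spread between libraries. Without WT replicate 1 the diabetic group differed from WT by 0.36 for *Mt1* and 0.17 for *Mt2*, and leaving out any other library kept both below 0. For the euglycemic group several libraries turned the sign. The difference of *Mt1* was 1.10 without WT replicate 1, and -0.49, -0.29, -0.20 and -0.048 without WT replicate 2, WT replicate 3, euglycemic replicate 3 and euglycemic replicate 4. That of *Mt2* was 0.98, 0.20 and 0.15 without WT replicate 1, euglycemic replicate 1 and euglycemic replicate 2, and it moved to -0.76, -0.52, -0.49 and -0.26 without WT replicate 2, WT replicate 3, euglycemic replicate 3 and euglycemic replicate 4. None of these passed.

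The summed FPKM of *Mt1* and *Mt2* ranged from 420.3 to 3945 in WT, 368.9 to 995.9 in the diabetic and 592.2 to 2004 in the euglycemic group, and exact permutation tests of log2(sum + 1) gave adjusted p of 0.943 for each mutant group against WT and 0.514 between them. The ratio of *Mt1* to *Mt2* stayed between 4.21 and 6.19 in all 11 libraries. After group means were removed, the log2 levels of *Mt1* and *Mt2* went together across the 11 libraries (Pearson r = 0.998, Spearman rho = 0.991, permutation p = 1e-05, the smallest that 100000 permutations can give, adjusted over 6 pairs 6e-05). Without the libraries farthest from the median, WT replicates 1 and 2, r was 0.997. *Mt1* and *Mt2* lie 5513 bases apart on chromosome 8, and 73.5% of the exon bases of *Mt2* are overlapped by the antisense gene *Gm45774*, which was not analysed here. The relation of *Slc30a1* to *Mt1* did not pass (r = 0.547, rho = 0.473, permutation p = 0.082 and 0.144, adjusted 0.181 and 0.289), and without WT replicates 1 and 2 r was 0.124. For *Slc30a1* and *Mt2* r was 0.535 and rho 0.50 (permutation p = 0.0907 and 0.121, adjusted 0.181 and 0.289), and without WT replicate 1 and euglycemic replicate 3 they were 0.429 and 0.50. The 3 pairs with *Slc39a14* did not pass either, with adjusted permutation p of 0.545 to 0.647 for r. The genes most like *Mt1* over the 11 libraries were *Mt2* (r = 0.995), *Psph*, the last enzyme of serine synthesis (r = 0.968), and *Abracl* (r = 0.954), given as a description.

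**Figure D5:**
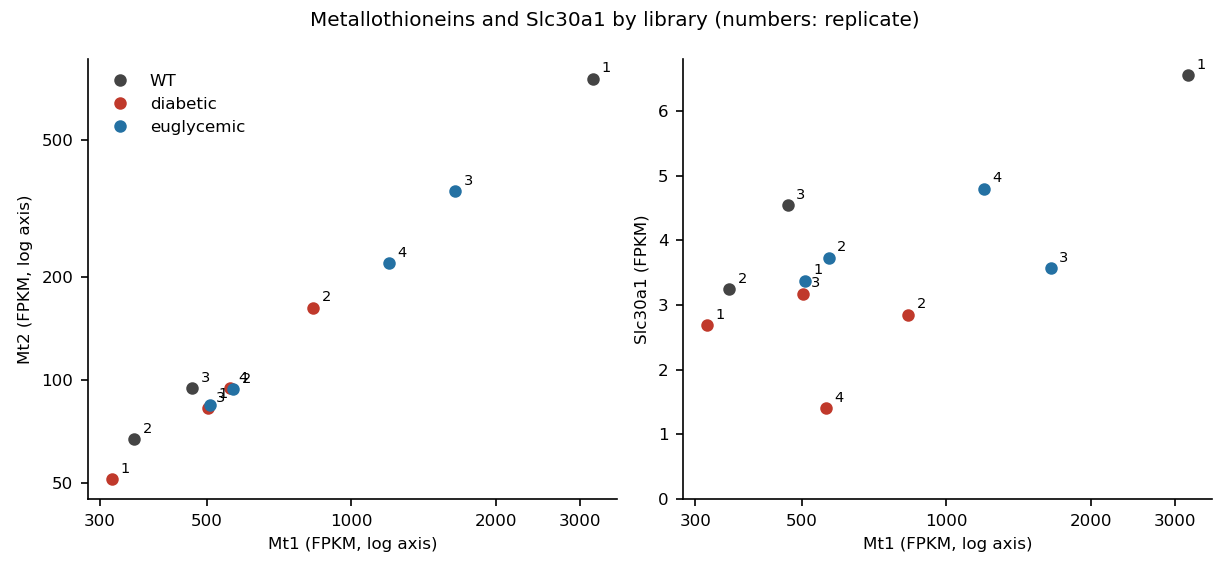
*Mt2* against *Mt1* (left, both axes logarithmic) and *Slc30a1* against *Mt1* (right, logarithmic horizontal axis) in FPKM; each point is 1 library, coloured by group and numbered by replicate. *Mt1* and *Mt2* lie on one line through all groups with ratios of 4.21 to 6.19, and for *Slc30a1* the highest point, WT replicate 1, stands alone.

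In each group the library with the highest metallothionein level had the lowest summed level of 8 immediate early genes, which respond quickly to handling of cells. That sum was 1179 FPKM in WT replicate 1 against 3236 and 2873 in the other WT libraries. In the diabetic group it was 976.3 in replicate 2 and 1038 to 1664 elsewhere. It was 927.3 and 987.1 in euglycemic replicates 3 and 4 against 4793 and 1987 in replicates 1 and 2. Over the 11 libraries, with group means removed, the summed level of *Mt1* and *Mt2* was negatively related to that of these genes (Pearson r = -0.826 and Spearman rho = -0.90, permutation p = 0.00162 and 0.00033, adjusted over 9 marker lists 0.00729 and 0.00297) and to that of the duct markers (r = -0.851 and rho = -0.836, permutation p = 0.00097 and 0.00244, adjusted 0.00729 and 0.011). Both relations were computed after the values had been seen, and the first is not separate from the order of libraries just described.

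Of 21 other zinc genes, namely further Slc30a and Slc39a transporters, *Tmem163*, *Mt3*, *Mt4*, *Mtf1* and *Mtf2*, 12 passed the filter on low values. *Mt3*, a metallothionein best known from brain, was the 1 that passed the test, higher in both mutant groups, where 0.471% (diabetic) and 0.356% (euglycemic) of all genes tested passed as higher. Its FPKM was 3.11, 1.41 and 1.51 in WT, 8.12, 10.6, 4.84 and 5.83 in the diabetic group and 11.5, 8.64, 4.82 and 7.23 in the euglycemic group. Every mutant library lay above every WT library, and the mutant groups overlapped. The log2 difference was 1.47 (SE 0.31, adjusted p = 0.0433 by limma) in the diabetic and 1.58 (SE 0.31, adjusted p = 0.0389) in the euglycemic group, and -0.11 (95% interval -0.72 to 0.50) between them. The calls were held in 11 and 10 of 22 alternative settings, with a log2 difference of 1.23 to 1.85 and 1.36 to 1.97 over all of them. The diabetic call was lost without any 1 of the WT or diabetic libraries or euglycemic replicate 2 (adjusted p = 0.0561 to 0.187 by limma). The euglycemic call was lost without WT replicate 2 or 3, diabetic replicate 1, 3 or 4, or euglycemic replicate 1, 2 or 4 (adjusted p = 0.0503 to 0.232). With the acinar score as a covariate the differences were 1.27 (adjusted p = 0.243 by limma) and 1.43 (adjusted p = 0.136), and with only the 6 libraries of low acinar RNA they were 1.23 and 1.36, neither passing. The summed α-, δ- and PP-cell, duct and immune markers were higher in every mutant library than in every WT library, with the values given above for *Slc30a8*, while acinar markers overlapped, and the part of these cell types in the level of *Mt3* was not tested. *Mt3* rested on about 9 to 103 fragments per library. It lies 18517 bases from *Mt2* in the same cluster, and *Mt4*, 13575 bases beyond it, was listed at 0 in every library.

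The 3 other zinc genes with the highest mean levels were *Slc39a7* (ZIP7), which releases zinc from the endoplasmic reticulum, with 16.9 to 57.1 FPKM, *Tmem163*, a zinc exporter, with 13.2 to 28.0, and *Slc39a9* (ZIP9) with 11.4 to 24.2. Their groups overlapped in all 3 comparisons and none of them passed. Of the exon bases of *Slc39a7*, 80.7% are shared with the overlapping *Gm20427* on the same strand. *Slc39a11* and *Mtf2* are named here after their values were seen. *Slc39a11*, like *Mt3*, had a level above WT in every library of both mutant groups, as did 6.67% (diabetic) and 5.91% (euglycemic) of all genes tested in the comparison of each group with WT. *Slc39a11* (ZIP11) had 5.99 to 7.12 FPKM in WT, 8.55 to 19.0 in the diabetic and 9.70 to 15.2 in the euglycemic group, with log2 differences of 0.95 (adjusted p = 0.157 by limma) and 0.87 (adjusted p = 0.201). *Mtf2*, named as a metal response factor but known as a Polycomb protein, had 0.694 to 0.711 FPKM in WT and 0.734 to 1.45 in the mutant libraries. It met the filter on low values through mutant libraries alone, so its higher level there is a description and supports nothing. *Mtf1* itself ranged from 1.42 to 2.97 FPKM with overlapping groups.

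*Slc30a8* works in the insulin granule, and of 20 genes for granule cargo and granule traffic, all of which were tested, 3 passed in the diabetic group against WT, 1 higher and 2 lower, beside 0.969% of all genes tested, and 5 had an unadjusted p under 0.05, beside 11.9%. These were, named after their values were seen, *Vgf*, a granule protein (log2 difference 1.27, adjusted p = 0.0449 by limma), *Rab37* (-1.35, adjusted p = 0.0449) and *Sytl4* (-1.02, adjusted p = 0.0376), the last 2 of which take part in granule docking. The count fell to 0 without any 1 of the WT libraries, diabetic replicates 1 to 3 or euglycemic replicate 3, and to 1 without diabetic replicate 4. It was 1 with TPM, a pseudocount of 0.1 or the replicate number as a block, and 0 with no filter or with the acinar score. In the euglycemic group 0 of the 20 passed by limma, with 3 at an unadjusted p under 0.05, beside 13.9% of all genes. The fitted differences there were -1.24 for *Rab37* (adjusted p = 0.0898) and -0.99 for *Sytl4* (adjusted p = 0.0583), near those of the diabetic group, with every library below WT, and 0.56 for *Vgf* (adjusted p = 0.378). Between the mutant groups 0 passed, with 2 under an unadjusted p of 0.05, beside 20.6%. The median log2 fold change of the 20 was 0.022, 0.0024 and -0.035 in the 3 comparisons, beside 0.0063, -0.010 and 0.0088 for all genes tested. *Slc30a8*, which is not on this list, had a lower log2 difference than each of the 20 in both comparisons with WT. The lowest of the 20, *Rab37*, was at -1.35 in the diabetic and -1.24 (SE 0.28) in the euglycemic group. There *Slc30a8* was at -1.31 (SE 0.22), within the error of *Rab37*, and no test compared these genes. The order holds for log2(FPKM + 1), which understates changes of low genes.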

How the data were processed

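Bulk RNA-seq of sorted GFP-positive β-cells gave 11 libraries (3 WT, 4 diabetic and 4 euglycemic βRapKOGFP). The authors made the deposited FPKM values from paired-end poly-A reads mapped to mm10. The study's methods name Tophat and Cufflinks, and the submitters' processing notes list HISAT2 2.0.4, StringTie 1.3.0 and edgeR, so which tools made the table is not settled. Strandedness is not given in the sources used here.

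Of 34745 entries, 34728 were kept, the one with the highest mean where a symbol occurred more than once. One limma fit (limma 3.58.1, R 4.3.3, with a mean-variance trend) held all 11 libraries on the scale log2(FPKM + 1), which understates changes of low genes. It covered genes that reached an FPKM of 1 in 3 or more libraries. On simulated data the fit called 186 of 200 genes changed 4-fold in the diabetic against WT comparison, with 16 unchanged genes, and 192 of 200 against the euglycemic group with 6 unchanged genes, among 11251 genes. The genes were changed in the diabetic libraries alone, so for euglycemic against WT, where 0 genes were called, the simulation gave no rate of detection. They were drawn from genes with a mean of log2(FPKM + 1) above that of 10 FPKM. The rates therefore do not cover *Slc30a1*, *Slc30a4*, *Slc30a7*, *Slc30a9*, *Slc39a14* or *Mt3*, whose means lay lower. Exact permutation tests, two-sided, served for *Rptor*, shares and sums, and 100000 permutations for relations. Depth was inferred from the FPKM of 4502 single-exon genes, where 92.7 to 97.3% of low values were whole steps within a tolerance of 0.02. Overlaps come from GENCODE vM21 (GRCm38) and upstream sequences from RefSeq. Named were the 10 genes, other zinc genes that passed or had the 3 highest mean levels, *Rptor*, and the 3 genes most like *Slc30a8* and *Mt1*. *Slc39a11*, *Mtf1*, *Mtf2*, *Mt4*, *Vgf*, *Rab37* and *Sytl4* fall outside this rule and were named after their values were seen. The genes and lists were chosen with earlier results of these data known. Alternatives were the replicate number as a block, other filters, a pseudocount of 0.1, TPM, median of ratios, a fit of the compared groups alone, library weights, no trend and leaving out each library. Those on acinar markers were added after seeing the data.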

Additional observations from a re-analysis of the deposited data

Results flagged for a closer look

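*Slc30a9* in euglycemic replicate 1 stood apart from its group at 5.96 FPKM, against 4.33 to 4.59 in the other 3 libraries. Its gap to the nearest library was 0.839 of the whole range, just above the critical value of 0.829 for 4 samples. Of 26 groups of 4 libraries tested this was the 1 that passed, where chance gives about 1.3.

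*Slc39a14* lay above the WT mean in every diabetic library and below it in every euglycemic library. The difference between the mutant groups was 0.39 on the log2(FPKM + 1) scale, with an adjusted p of 0.202 over all genes by limma (0.0296 before adjustment), so it did not pass. The gene met the filter on low values through the 4 diabetic libraries and 1 WT library, so this is a description only.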

How the results depend on the processing

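The fall of *Slc30a8* in the diabetic group passed in 21 of 22 alternatives, with a log2 fold change of -1.90 to -1.44. In the euglycemic group it passed in 14 of 22, with -1.42 to -1.15, and was lost with the replicate block, no filter, only the groups compared, the acinar score, the 6 libraries of low acinar RNA, and without WT replicate 2, WT replicate 3 or euglycemic replicate 2. Each of these gave 0 of the 10 genes called, so leaving out a library gave 0 to 1, and the 6 libraries gave 0 in the diabetic group too. Library weights gave 2 of the 10 in the diabetic group. The count for other zinc genes against WT was 0 to 1 when a library was left out, 0 with no filter, the acinar score or the 6 libraries, 0 with only the groups compared in the euglycemic group, and 2 (diabetic), 3 (euglycemic) and 1 (between mutant groups) with library weights. The count of granule genes in the diabetic group was 0 to 4 when a library was left out, 1 with the replicate block, a pseudocount of 0.1 or TPM, and 0 with no filter, the acinar score or the 6 libraries. In the euglycemic group it was 0 to 3 when a library was left out (3 without WT replicate 1), 1 with median of ratios and 8 with library weights, and between mutant groups 2 with library weights. Over all genes, the counts of 109, 62 and 1 ranged from 1 to 551, 4 to 2287 and 0 to 1212, the highest with library weights; without WT replicate 1 they were 36, 536 and 378. TPM moved the diabetic calls from 53 higher and 56 lower to 62 and 35, and shifted the median of all genes between mutant groups by 0.11.

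Same-numbered libraries did not vary together on average (mean r of deviations -0.132 over 10 pairs, from -0.368 to 0.212, against 0.0433 for other pairs). The labels do not say what the replicate numbers stand for, and shared handling of same-numbered libraries was not tested. With the numbers as a block, 45, 20 and 0 genes were called. Permuted within replicate numbers, the share of *Slc30a8* differed by -21.6 and -12.2 points against WT (exact p = 0.25 each), where the design cannot reach the threshold; the same holds when a library is left out (-21.6 to -18.4 and -12.2 to -9.88). Between mutant groups the share differed by -10.4 to -7.16 points and passed without diabetic replicate 4.

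Directions turned in results that had not passed. When a library was left out, *Mt1* ranged from -1.22 to 0.36 (diabetic against WT) and -0.49 to 1.10 (euglycemic against WT), *Mt2* from -1.57 to 0.17 and -0.76 to 0.98, and their sum from -1.28 to 0.33 and -0.53 to 1.08. In the same order of comparison, *Slc30a6* ranged from -0.12 to 0.087 and *Slc39a9* from -0.10 to 0.25 in the diabetic group, and *Slc30a4* from -0.18 to 0.23, *Slc30a5* from -0.0070 to 0.38 and *Slc39a7* from -0.20 to 0.36 in the euglycemic group. Between mutant groups *Slc30a9* ranged from -0.042 to 0.086 and *Mt3* from -0.31 to 0.061. Library weights gave 0.16 for *Mt1*, 0.051 for *Slc30a6* and -0.033 for *Slc39a9* (diabetic) and 0.57 for *Mt2* (euglycemic). The acinar score gave 0.21 for *Slc30a6* and -0.25 for *Slc39a9* (diabetic), and 0.16 for *Mt2* and -0.052 for *Slc30a4* (euglycemic). The 6 libraries, with 1 diabetic library among them, gave 0.17 for *Slc30a6* and -0.42 for *Slc39a9* (diabetic), 0.11 for *Mt2* (euglycemic), and -0.19 for *Slc30a4* and 0.10 for *Slc30a9* (between mutant groups). TPM gave 0.071 for *Slc30a6* (diabetic), -0.032 for *Slc30a4* (euglycemic) and 0.11 for *Slc30a9* (between mutant groups); median of ratios gave -0.00027 for *Slc30a4*, and the replicate block 0.022 for *Slc30a6*. The correlation of *Mt2* and *Slc39a14* was 0.024 without the 2 farthest libraries. The causes were not tested. No zinc gene of the 10 fell below the filter, so the alternatives planned for such genes were not run.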

Other observations

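The relation of the summed level of *Mt1* and *Mt2* to 9 lists of marker genes was computed after the values had been seen, on log2(sum + 1) with group means removed. Beside the negative relations to the immediate early genes and the duct list already given, r was -0.902 for the immediate early genes without the libraries farthest from the median, WT replicate 1 and euglycemic replicate 1, and -0.775 for the duct list without WT replicate 1 and diabetic replicate 2. The duct list had a summed level of 4.02 to 6.79 FPKM in WT and 17.5 to 43.5 in the mutant libraries. For the other 7 lists the adjusted permutation p was 0.628 or higher for r. These relations describe the libraries only.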
